A study of Arabidopsis thaliana with 27 samples.

Results

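Gynoecia with an added ARF8 transgene were compared directly with gynoecia of arf6arf8 double mutants in Arabidopsis thaliana. ARF6 and ARF8 are a pair of auxin response factors, and their activity was not measured. The 4 mARF8 gynoecium libraries were set against the 2 arf6arf8 gynoecium libraries, 6 of the 27 libraries in the series. As a reference, 4 wild-type gynoecium libraries were used. Plants called mARF8 carried a genomic ARF8 transgene whose miR167 target site was mutated, in addition to their own ARF6 and ARF8 genes, and all 4 libraries are labelled with 1 stable line, 3B, although the title of replicate 4 leaves the line out. The arf6arf8 plants were double mutants of ARF6 and ARF8, with alleles not given in the sources used here. All gynoecia were of the Columbia background, 0.9 to 1.4 mm long, and were taken from stage 12 flowers within the first hours after dawn of a 14 h day. Polyadenylated RNA was read as single-end reads of 50 bases, and the deposited values are read counts per locus. Whether the replicates were grown or collected separately is not given, so each p-value measures only the spread between these libraries, which may be technical. Other gynoecia had a stabilised IAA17 protein driven by STK promoter sequences, alone (axr3, 4 libraries) or in an arf6 mutant (arf6axr3, 4 libraries). Those libraries entered the gene filter, the scaling and the model's estimate of spread, and were not compared.

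Auxin response factors bind auxin response elements in promoters. When auxin is low, Aux/IAA proteins bind the activating response factors and repress their targets. Auxin brings Aux/IAA proteins to a ubiquitin ligase that marks them for destruction, and the targets, which include Aux/IAA, GH3 and SAUR genes, are then transcribed. ARF6 and ARF8 act redundantly late in flower development. Double mutant flowers stop growing before they open, with short stamen filaments, little jasmonate, and gynoecia whose stigmas and styles do not complete their development. The microRNA miR167 guides cleavage of the transcripts of both genes and keeps them out of parts of the ovule and anther, and plants with miR167-resistant ARF6 or ARF8 have swollen ovules and are sterile.

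The mature miR167 sequences and the sites they pair with show what the transgene changes, since the site in mARF8 no longer matches. The sequences below are from RefSeq, build TAIR10.1, in DNA letters and 5′ to 3′, with bases 2 to 8 of each miRNA (the seed) in capitals. The miR167a, b and d sequences share 1 seed, and that of miR167c is shifted by 1 base.
miR167a, chr3:8108090-8108110, plus strand: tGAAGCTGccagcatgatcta
miR167b, chr3:23406177-23406197, plus strand: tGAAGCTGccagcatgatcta
miR167c, chr3:1306750-1306770, minus strand: tAAGCTGCcagcatgatcttg
miR167d, chr1:11137556-11137577, plus strand: tGAAGCTGccagcatgatctgg
The unmutated sites in the coding sequences of the target genes are given with the bases that do not pair with miR167a in capitals.
ARF6 (AT1G30330), chr1:10686478-10686498, minus strand: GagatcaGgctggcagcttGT
ARF8 (AT5G37020), chr5:14633841-14633861, plus strand: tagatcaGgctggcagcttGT
The ARF8 site pairs with miR167a at 18 of 21 bases and lies in exon 13 of 14 in the main annotated transcripts. The ARF6 site pairs at 17 of 21 bases and lies in exon 13 of 14 or 14 of 15, depending on the transcript. The mutated letters of the transgene are not given in the sources used here.

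The altered genes followed the labels in every library. ARF8 had 788, 1087, 1184 and 1216 CPM in mARF8, 87.3 and 91.8 CPM in arf6arf8 and 406, 371, 371 and 371 CPM in wild type, where CPM is the count relative to the scaled size of the library. Every mARF8 library lay above every wild-type library and every arf6arf8 library lay below them, and the log2 fold change of mARF8 over arf6arf8 was 3.58 ± 0.14 (standard error; edgeR quasi-likelihood test with Benjamini-Hochberg adjustment, adjusted p = 4.22e-11). Reads from the transgene and from the endogenous ARF8 gene cannot be told apart, and the arf6arf8 reads show that the mutant genes still gave transcripts. ARF6 had 399, 332, 394 and 439.8 CPM in mARF8, 130.5 and 139.5 CPM in arf6arf8 and 437, 449.5, 557 and 561 CPM in wild type. The arf6arf8 libraries stood apart at the low end (log2 fold change 1.54 ± 0.12, adjusted p = 2.25e-07), while mARF8 against wild type did not pass the test (log2 fold change -0.35, adjusted p = 0.0828).

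The primary transcript of MIR167A (AT3G22886) went the other way. MIR167A had 0.142, 0.276, 0.566 and 0.57 CPM in mARF8, 16.4 and 16.1 CPM in arf6arf8 and 0.299, 0.248, 0.159 and 0.546 CPM in wild type. The arf6arf8 libraries were far above the other 8, which were at or near the level of a few counts (log2 fold change of mARF8 over arf6arf8 -5.37 ± 0.45, adjusted p = 3.49e-07). MIR167B had too few counts to be tested, and MIR167C and MIR167D had 0 counts in all 10 libraries of the 3 groups. A precursor locus read from polyadenylated RNA does not measure the mature miRNA.

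**Figure D1:**
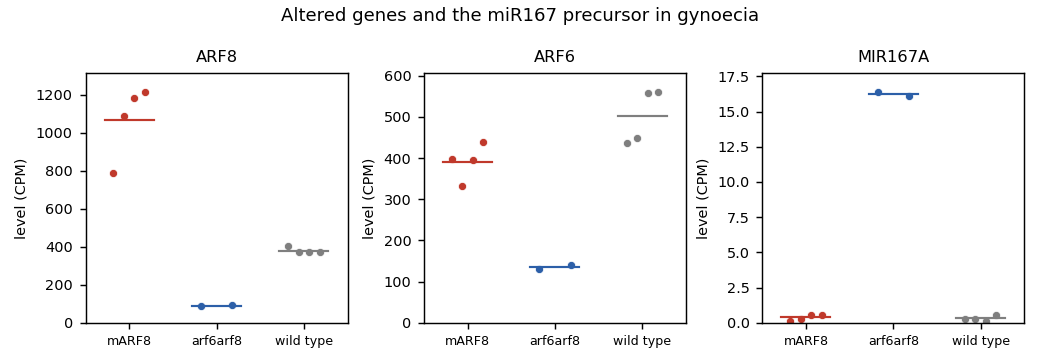
Level (CPM, linear axis from 0) of ARF8, ARF6 and the MIR167A primary transcript in each gynoecium library, with points for libraries and a line for the group mean. ARF8 lies at 788 to 1216 CPM in mARF8, 87.3 and 91.8 CPM in arf6arf8 and 371 to 406 CPM in wild type, while MIR167A is at 16.4 and 16.1 CPM in arf6arf8 and below 1 CPM in both other groups.

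Across the transcriptome, 3332 of 18616 genes tested (17.9%) differed between mARF8 and arf6arf8 gynoecia at an adjusted p under 0.05 in edgeR's quasi-likelihood test, and such genes are named called below. Of these, 1552 (8.34%) were higher and 1780 (9.56%) were lower in mARF8. The median size of the called changes was 0.66 on the log2 scale, 502 genes were over 2-fold higher and 607 over 2-fold lower, and the median log2 fold change of all genes tested was 0.01. The libraries of the 2 groups did not overlap for 7323 genes (39.3%), called or not. Set against the same wild-type libraries, mARF8 differed in 128 genes (0.688%) and arf6arf8 in 2077 (11.2%). The wild-type mean lay between those of mARF8 and arf6arf8 for 1331 of 1552 genes called higher and 1487 of 1780 called lower. Over all 18616 genes tested it did so for 9069. Called genes were picked for a gap between the mARF8 and arf6arf8 means, and another mean falls inside a wide gap more often. The share over all genes is therefore not a like reference. Leaving out arf6arf8 replicate 1 or 2 brought the count of 3332 to 1529 or 1569, since 1 mutant library then stands for its group and is assumed to vary like the others. The count of arf6arf8 against wild type became 792 or 753 in the same way. The count of mARF8 against wild type became 38 without mARF8 replicate 3, 67 without mARF8 replicate 2, 52 without wild-type replicate 4 and 68 without wild-type replicate 2.

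Libraries held 3692975 to 7017884 counts in mARF8, 14586768 and 15005992 in arf6arf8 and 6177301 to 11821613 in wild type, so 3 counts, taken as the floor of detection, were worth 0.426 to 0.827 CPM in mARF8, 0.201 and 0.209 CPM in arf6arf8 and 0.248 to 0.478 CPM in wild type. mARF8 replicate 2 had the smallest total and stood apart on the second principal component. In whole gynoecia, fewer cells of a type and less RNA per cell cannot be told apart, which holds for every difference below. Intervals and floors cover counting error only. Each gene list below is set beside the 8.34% of all genes called higher and the 9.56% called lower. The gene filter asks for a level in only as many libraries as the smallest group holds. A gene can thus be tested because it is high in 1 group alone, and its direction is then no independent result.

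**Figure D2:**
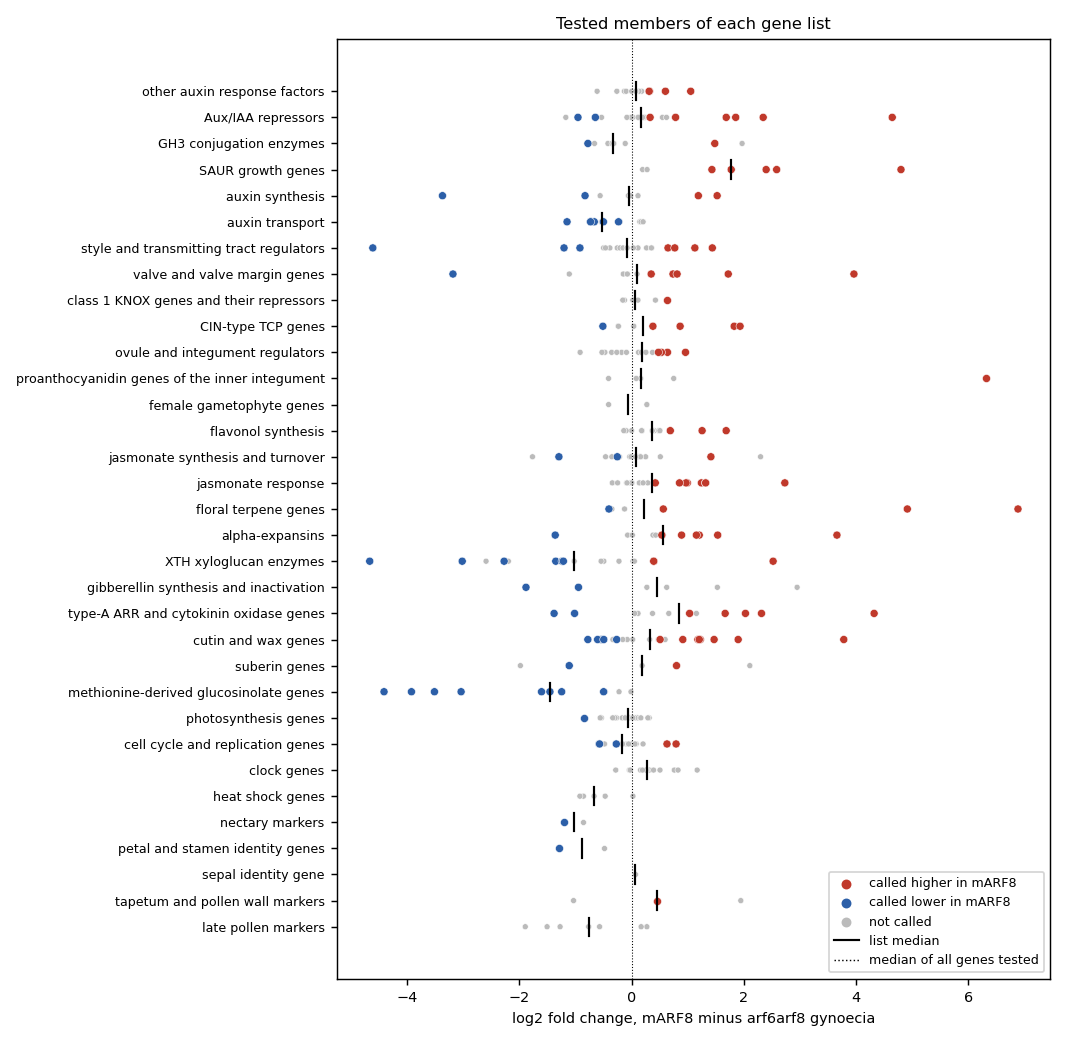
Log2 fold change of mARF8 over arf6arf8 gynoecia (horizontal axis) for each tested member of each gene list, one row per list, with called members in red (higher in mARF8) or blue (lower) and others in grey. SAUR genes, type-A ARR genes with CKX genes and jasmonate response genes lie mostly to the right of the dotted median of all genes, while all 8 called glucosinolate genes and all 7 called auxin transport genes lie to the left.

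The genes with the largest increase were nearly silent in arf6arf8 and present in wild type. GRI (AT1G53130), a small secreted protein of the STIG1 family named for its part in cell death, had 11.2, 7.99, 11.3 and 8.37 CPM in mARF8, 0 and 0 CPM in arf6arf8 and 13.1, 7.78, 13.1 and 10.2 CPM in wild type. With 0 counts in arf6arf8 against a floor of 3 counts over the group, it was at least 97.2-fold higher in mARF8 (adjusted p = 0.000273). AT4G35160, annotated as an O-methyltransferase, had 25.3, 40.2, 33.4 and 35.6 CPM in mARF8, 0.0698 and 0 CPM in arf6arf8 and 29.1, 12.7, 12.9 and 17.6 CPM in wild type. It had 1 count in arf6arf8, a 947-fold ratio with a counting interval of 169 to 37450 (adjusted p = 2.59e-08). The cellulase of glycosyl hydrolase family 5 AT3G26140 had 132, 96.7, 108 and 106 CPM in mARF8, 0.279 and 0.47 CPM in arf6arf8 and 157, 106, 142 and 139 CPM in wild type. The mARF8 and wild-type libraries overlapped, and the arf6arf8 libraries held a trace (log2 fold change 8.15 ± 0.35, adjusted p = 1.3e-10).

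The other members of the top 6 had the same shape. BETAG4 (AT5G20330), a beta-1,3-glucanase, had 37.8, 29.8, 41.9 and 31.9 CPM in mARF8, 0.209 and 0.336 CPM in arf6arf8 and 40.2, 26.5, 48.3 and 40.4 CPM in wild type (log2 fold change 6.95 ± 0.60, adjusted p = 5.6e-07). The uncharacterised gene AT4G33600 had 9.37, 5.24, 6.42 and 6.66 CPM in mARF8, 0.0698 and 0 CPM in arf6arf8 and 10.4, 10.0, 12.6 and 13.4 CPM in wild type, with 1 count in arf6arf8 and a ratio of 212 (37.5 to 8424, adjusted p = 1.76e-07). TT12 (AT3G59030), a transporter of proanthocyanidin precursors in the seed coat, had 7.81, 6.34, 5.85 and 6.28 CPM in mARF8, 0 and 0.134 CPM in arf6arf8 and 6.87, 5.38, 8.76 and 7.00 CPM in wild type, with 2 counts in arf6arf8 and a ratio of 97.7 (26.6 to 815, adjusted p = 2.71e-07). In all 6 genes the wild-type libraries, too, lay far above both arf6arf8 libraries. For mARF8, no overlap with arf6arf8 was a condition for naming them.

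The genes with the largest decrease were highest in arf6arf8 and low or at 0 in mARF8. AT4G08093, an annotated pseudogene, had 0, 0, 0 and 0 CPM in mARF8, 10.5 and 12.0 CPM in arf6arf8 and 0, 0, 0 and 0.328 CPM in wild type. It was at least 79.5-fold lower in mARF8, which had 0 counts (adjusted p = 9.94e-05). GSTF6 (AT1G02930), a phi class glutathione S-transferase of stress responses, had 0.71, 0.551, 0 and 0 CPM in mARF8, 70.9 and 49.6 CPM in arf6arf8 and 0.199, 0, 0.159 and 0.109 CPM in wild type. Both arf6arf8 libraries stood far above the other 8 (log2 fold change -7.46 ± 0.80, adjusted p = 5.37e-06). AT4G12960, a GILT family thiol reductase (GILT in the plots), had 1.99, 1.1, 1.13 and 0.951 CPM in mARF8, 52.7 and 218 CPM in arf6arf8 and 19.7, 21.7, 9.08 and 17.4 CPM in wild type (log2 fold change -6.62 ± 0.73, adjusted p = 7.64e-06). Wild type lay between the other groups without overlap, and the 2 arf6arf8 libraries lay far apart.

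The pectin methylesterase gene AT5G49180, a cell wall enzyme gene, had 0.142, 0.276, 0 and 0 CPM in mARF8, 6.35 and 37.2 CPM in arf6arf8 and 2.09, 1.16, 0.319 and 2.29 CPM in wild type. Its 2 counts in mARF8 gave a ratio of 234 (64.6 to 1939, adjusted p = 0.000113), with the 2 arf6arf8 libraries again far apart. AT1G06100, of the fatty acid desaturase family, had 0.142, 0, 0.378 and 0 CPM in mARF8, 16.6 and 7.79 CPM in arf6arf8 and 0.498, 0.331, 0.159 and 0.109 CPM in wild type, and its 3 counts in mARF8 gave a ratio of 85.8 (29.1 to 418, adjusted p = 5.02e-07). A defensin-like gene, AT3G05730, had 0, 0, 0 and 0 CPM in mARF8, 2.30 and 4.30 CPM in arf6arf8 and 0.0995, 0.166, 0 and 0.984 CPM in wild type. It was at least 23.5-fold lower in mARF8 (adjusted p = 0.0126), with an adjusted p of 0.0688 without arf6arf8 replicate 2. No overlap between mARF8 and arf6arf8 libraries was a condition for naming these 6 genes.

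**Figure D3:**
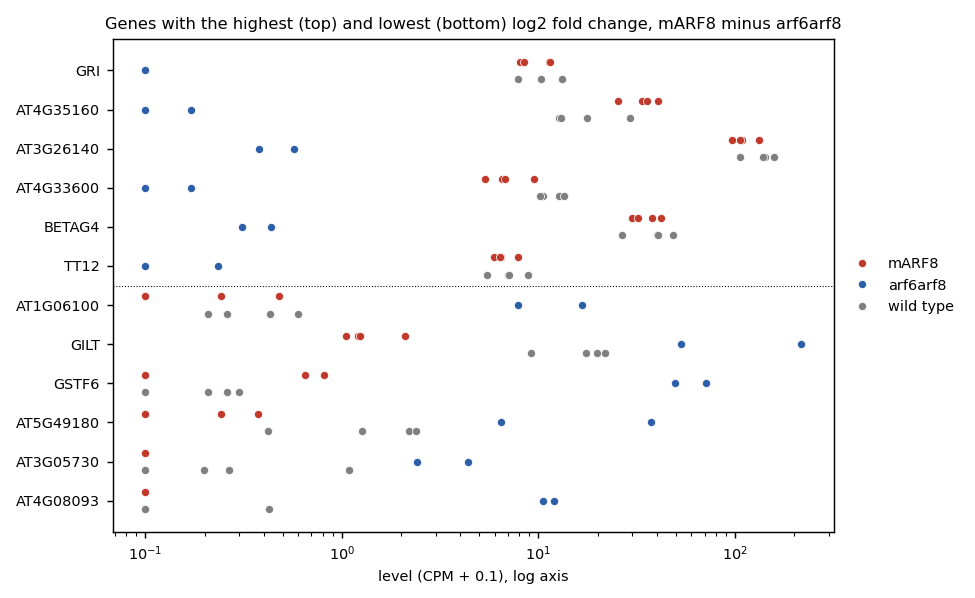
Level (CPM + 0.1, log axis) of the 6 genes with the highest and the 6 with the lowest log2 fold change of mARF8 over arf6arf8, with 1 point per library and points that coincide drawn on top of each other. In the upper 6 genes the 2 arf6arf8 libraries lie at or below 0.47 CPM and in the lower 6 they lie at 2.30 CPM or above, while wild type lies near mARF8 in most.

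Of the 13 response factor genes other than ARF6 and ARF8, 4 were higher in mARF8 and none was lower. In the lower direction 2 members had an unadjusted p under 0.05 in edgeR and DESeq2 called 0. ARF16, a target of the microRNA miR160 that belongs to the repressing class, had 28.5, 34.5, 28.3 and 30.8 CPM in mARF8, 14.3 and 14.9 CPM in arf6arf8 and 28.5, 27.7, 27.1 and 32.0 CPM in wild type. The mARF8 and wild-type libraries overlapped at a level above both arf6arf8 libraries (log2 fold change 1.05 ± 0.12, adjusted p = 1.24e-05). ARF9 had 60.9, 59.8, 70.0 and 72.2 CPM in mARF8, 43.7 and 43.0 CPM in arf6arf8 and 53.1, 64.9, 71.0 and 60.4 CPM in wild type, again with arf6arf8 apart at the low end (0.60 ± 0.10, adjusted p = 0.000581). Changes were small for ARF4, a target of trans-acting small RNAs (0.31 ± 0.08, adjusted p = 0.0143), and for ARF5, the activator that patterns the embryo and flower (0.32 ± 0.11, adjusted p = 0.0444), and neither passed without arf6arf8 replicate 1 (adjusted p = 0.0508 for ARF4 and 0.158 for ARF5) or replicate 2 (0.174 and 0.257). ARF5 also failed without mARF8 replicate 1, 3 or 4 (adjusted p = 0.0582, 0.0741 and 0.125). Without arf6arf8 replicate 1 or 2, the list's count was 2 each time.

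Among 22 tested Aux/IAA repressors, 6 were higher and 2 lower in mARF8, and the list's median log2 fold change was 0.17. The strongest was IAA7 (AT3G23050), one of the repressors whose stabilised form makes plants auxin resistant, with 52.8, 84.9, 84.2 and 65.8 CPM in mARF8, 2.44 and 3.22 CPM in arf6arf8 and 44.0, 35.4, 27.1 and 31.1 CPM in wild type. Each mARF8 library lay above each wild-type library, and each wild-type library lay above both arf6arf8 libraries (log2 fold change 4.65 ± 0.31, adjusted p = 3.34e-08). IAA26 (AT3G16500) had 74.5, 86.5, 94.6 and 79.7 CPM in mARF8, 21.6 and 24.6 CPM in arf6arf8 and 56.3, 66.8, 60.5 and 55.0 CPM in wild type, with the 3 groups in the same order and none overlapping (1.85 ± 0.14, adjusted p = 2.25e-07). IAA1 (AT4G14560), an early auxin-induced member, had 28.2, 29.8, 29.6 and 19.8 CPM in mARF8, 4.33 and 6.18 CPM in arf6arf8 and 26.3, 25.2, 20.7 and 28.0 CPM in wild type. In IAA1 the mARF8 and wild-type libraries overlapped and arf6arf8 was low (2.35 ± 0.30, adjusted p = 3.03e-05).

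IAA28, which acts in lateral root founder cells, had 7.53, 12.1, 13.0 and 8.37 CPM in mARF8, 2.23 and 4.03 CPM in arf6arf8 and 6.37, 7.12, 4.46 and 5.46 CPM in wild type (1.69 ± 0.27, adjusted p = 0.000246). IAA16 (0.78 ± 0.13, adjusted p = 0.000394) and IAA8 (0.33 ± 0.09, adjusted p = 0.0172) were also higher in mARF8, IAA8 not without arf6arf8 replicate 1 or 2 (adjusted p = 0.128 and 0.113). Both repressors that went the other way were lowest in mARF8 on average. IAA13 (AT2G33310) had 24.4, 25.1, 22.3 and 22.6 CPM in mARF8, 34.0 and 39.8 CPM in arf6arf8 and 29.9, 34.1, 29.1 and 31.9 CPM in wild type, without overlap between mARF8 and arf6arf8 or between mARF8 and wild type (-0.65 ± 0.09, adjusted p = 8.55e-05). IAA4 (AT5G43700) had 51.0, 48.2, 49.3 and 55.9 CPM in mARF8, 87.7 and 111 CPM in arf6arf8 and 51.0, 58.0, 54.5 and 49.7 CPM in wild type (-0.96 ± 0.16, adjusted p = 0.000368). IAA17 (0.24 ± 0.23, adjusted p = 0.532) and IAA2 (0.62 ± 0.39, adjusted p = 0.3) did not pass the test. Against wild type, mARF8 had 2 members called higher and 1 lower, and arf6arf8 had 1 higher and 6 lower.

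Auxin response elements are where these factors bind. The promoters shown are of the Aux/IAA gene with the largest increase, the early-induced member and the called decrease with the smallest adjusted p. They are the 250 bases before the annotated start in RefSeq TAIR10.1, written 5′ to 3′ on the strand of the gene, with matches to TGTCTC or TGTCGG on either strand in capitals (the reverse complements read GAGACA and CCGACA, and the motifs do not overlap in these windows).
IAA7, chr3:8194356-8194605, plus strand: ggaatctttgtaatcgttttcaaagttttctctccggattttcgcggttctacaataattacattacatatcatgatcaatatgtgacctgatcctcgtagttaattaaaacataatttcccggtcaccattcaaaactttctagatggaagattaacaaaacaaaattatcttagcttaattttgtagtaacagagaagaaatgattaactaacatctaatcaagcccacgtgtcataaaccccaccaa
IAA1, chr4:8360746-8360995, plus strand: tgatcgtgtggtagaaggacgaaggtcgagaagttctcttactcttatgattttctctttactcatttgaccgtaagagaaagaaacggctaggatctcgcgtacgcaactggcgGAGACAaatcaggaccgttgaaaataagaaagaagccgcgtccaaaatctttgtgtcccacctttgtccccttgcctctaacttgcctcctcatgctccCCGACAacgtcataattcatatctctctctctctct
IAA13, chr2:14116090-14116339, minus strand: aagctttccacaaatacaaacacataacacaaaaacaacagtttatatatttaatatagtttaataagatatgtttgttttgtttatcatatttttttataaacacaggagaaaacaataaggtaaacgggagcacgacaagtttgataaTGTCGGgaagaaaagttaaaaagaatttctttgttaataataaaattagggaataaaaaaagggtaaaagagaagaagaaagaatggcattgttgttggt
The IAA1 window held 1 match to each motif, the IAA13 window 1 match to TGTCGG, and the IAA7 window neither. TGTCTC was found in 181 of 1551 windows of genes called higher (11.7%) and 181 of 1780 called lower (10.2%), against 1969 of 18566 windows of all genes tested (10.6%). TGTCGG was found in 5.74% and 4.66%, against 4.64%. A match is a description of letters and not of binding.

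The smaller auxin-induced families split. Of 7 SAUR genes tested, out of 20 listed, 5 were higher in mARF8 and none was lower, with a median log2 fold change of 1.78. In the lower direction no SAUR gene had an unadjusted p under 0.05 in edgeR or was called by DESeq2. SAUR21, which promotes cell expansion, had 1.56, 2.21, 2.64 and 2.85 CPM in mARF8, 0.0698 and 0.0672 CPM in arf6arf8 and 1.29, 2.15, 1.11 and 1.53 CPM in wild type. All mARF8 and wild-type libraries were above the 2 arf6arf8 libraries, each of which held 1 count, so the ratio was 33.0 (8.66 to 280, adjusted p = 2.9e-05). SAUR67 had 5.11, 4.13, 3.59 and 4.56 CPM in mARF8, 0.559 and 1.07 CPM in arf6arf8 and 3.68, 4.80, 4.30 and 3.06 CPM in wild type (2.40 ± 0.37, adjusted p = 0.000175) and SAUR66 had 12.2, 10.5, 11.3 and 10.1 CPM in mARF8, 3.21 and 4.97 CPM in arf6arf8 and 11.2, 9.85, 7.80 and 8.31 CPM in wild type (1.43 ± 0.26, adjusted p = 0.000939), without overlap between arf6arf8 and either other group. SAUR62 and SAUR63, at levels near the floor, lost their calls without arf6arf8 replicate 1 (adjusted p = 0.14 and 0.188) or replicate 2 (0.09 and 0.0742), SAUR63 also without mARF8 replicate 1 (0.0564) or 3 (0.063) and by DESeq2 (0.0544), and the family's count was then 3 without either arf6arf8 library. SAUR genes are close copies, and reads shared between them are uncertain.

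GH3 enzymes join auxin to amino acids, and of 8 tested 1 was higher and 1 lower. GH3.6 had 44.6, 32.0, 44.2 and 50.4 CPM in mARF8, 14.9 and 15.9 CPM in arf6arf8 and 37.0, 24.4, 33.9 and 43.4 CPM in wild type (1.48 ± 0.35, adjusted p = 0.00681). GH3.3 had 54.9, 39.1, 42.5 and 62.9 CPM in mARF8, 98.9 and 73.7 CPM in arf6arf8 and 50.0, 53.3, 72.2 and 60.2 CPM in wild type (-0.78 ± 0.17, adjusted p = 0.00323). In neither gene did mARF8 overlap arf6arf8, but neither passed without arf6arf8 replicate 1 (adjusted p = 0.0778 for GH3.6 and 0.113 for GH3.3), nor GH3.6 without replicate 2 (0.0588). The family's count was 0 without arf6arf8 replicate 1, 1 without replicate 2 and 4 without mARF8 replicate 4.

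Both steps of auxin synthesis had genes called. TAA1 (AT1G70560), the aminotransferase of the first step, had 145, 158, 204 and 201 CPM in mARF8, 67.1 and 56.0 CPM in arf6arf8 and 147, 145, 143 and 146 CPM in wild type. The arf6arf8 libraries were below all 8 others, among which mARF8 overlapped wild type (log2 fold change 1.52 ± 0.17, adjusted p = 7.64e-06). Flavin monooxygenases of the YUC family, which carry out the second step, went both ways. YUC8 (AT4G28720) had 0.852, 0.551, 0.755 and 0.57 CPM in mARF8, 6.14 and 8.66 CPM in arf6arf8 and 2.19, 0.828, 0.796 and 0.765 CPM in wild type, high in arf6arf8 alone (-3.37 ± 0.39, adjusted p = 1.04e-05). YUC6 had 23.1, 15.7, 23.2 and 20.5 CPM in mARF8, 35.4 and 39.1 CPM in arf6arf8 and 22.9, 28.6, 23.9 and 23.6 CPM in wild type (-0.83 ± 0.13, adjusted p = 0.000237), also with arf6arf8 above all other libraries. YUC2 was higher in mARF8 (1.19 ± 0.31, adjusted p = 0.0117), though not without arf6arf8 replicate 2 (adjusted p = 0.188). Of the 8 genes tested, 2 were thus higher and 2 lower.

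Of 14 auxin transport genes tested, 7 were lower in mARF8 and none was higher, with a median log2 fold change of -0.52. In the higher direction 1 member had an unadjusted p under 0.05 in edgeR and DESeq2 called 0. PIN7 (AT1G23080), an efflux carrier, had 118, 114, 108 and 118 CPM in mARF8, 186 and 189.8 CPM in arf6arf8 and 141, 151, 141 and 139 CPM in wild type. The groups lay in the order mARF8, wild type, arf6arf8 without overlap (-0.72 ± 0.07, adjusted p = 3e-06). LAX1, an influx carrier, had 27.3, 23.1, 26.2 and 26.6 CPM in mARF8, 45.2 and 41.1 CPM in arf6arf8 and 26.5, 30.1, 31.5 and 30.3 CPM in wild type (-0.73 ± 0.11, adjusted p = 0.000206). WAG2, a kinase that phosphorylates PIN proteins, had 4.40, 5.79, 5.66 and 7.04 CPM in mARF8, 12.0 and 13.2 CPM in arf6arf8 and 5.67, 6.04, 6.37 and 4.37 CPM in wild type (-1.15 ± 0.24, adjusted p = 0.00308). For LAX1 and WAG2 the arf6arf8 libraries were above all others.

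The efflux carriers PIN3 (-0.73 ± 0.19, adjusted p = 0.0131) and PIN4 (-0.67 ± 0.15, adjusted p = 0.00506) and the influx carrier AUX1 (-0.50 ± 0.11, adjusted p = 0.00466) were lower in mARF8 as well. None of the 3 passed without arf6arf8 replicate 2 (adjusted p = 0.267, 0.144 and 0.0707), and the count of the list was then 3. In arf6arf8 against wild type 6 members were called higher, and in mARF8 against wild type 1 was called lower.

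Type-A ARR genes are induced by cytokinin and dampen its signalling, while cytokinin oxidases (CKX) degrade it. Of 12 such genes tested, 5 were higher in mARF8 and 2 lower, with a median log2 fold change of 0.85, and all 5 that were higher were type-A ARR genes. ARR5 (AT3G48100) had 7.95, 12.7, 9.63 and 9.70 CPM in mARF8, 0.489 and 0.47 CPM in arf6arf8 and 6.27, 4.72, 5.10 and 6.45 CPM in wild type. Its arf6arf8 values were below 1 in 10 of every mARF8 value (4.32 ± 0.53, adjusted p = 2.16e-05). ARR4 (AT1G10470) had 36.2, 32.2, 59.8 and 55.7 CPM in mARF8, 8.66 and 9.87 CPM in arf6arf8 and 19.8, 15.8, 23.6 and 25.9 CPM in wild type (2.31 ± 0.27, adjusted p = 1.44e-05). ARR7 (AT1G19050) had 27.7, 21.8, 27.9 and 23.4 CPM in mARF8, 6.77 and 5.64 CPM in arf6arf8 and 14.6, 13.1, 17.2 and 19.7 CPM in wild type (2.03 ± 0.25, adjusted p = 2.06e-05). In ARR4 and ARR7 the 3 groups did not overlap, with mARF8 highest and arf6arf8 lowest.

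ARR9 had 15.3, 16.8, 19.1 and 19.4 CPM in mARF8, 5.24 and 5.84 CPM in arf6arf8 and 7.36, 9.69, 11.3 and 9.73 CPM in wild type (1.67 ± 0.24, adjusted p = 0.000114), in the same order without overlap. ARR15 was higher in mARF8 (1.03 ± 0.31, adjusted p = 0.0254) but overlapped arf6arf8, and did not pass without arf6arf8 replicate 1 (adjusted p = 0.0823) or 2 (0.213) or mARF8 replicate 3 (0.0801) or 4 (0.0639). CKX1 had 5.96, 2.76, 3.40 and 5.51 CPM in mARF8, 11.7 and 12.1 CPM in arf6arf8 and 6.17, 6.12, 6.69 and 6.34 CPM in wild type, higher in both arf6arf8 libraries than in any other (-1.38 ± 0.24, adjusted p = 0.000633). CKX5 was also lower in mARF8 (-1.02 ± 0.28, adjusted p = 0.0159), though not without arf6arf8 replicate 2 (0.152). Among the other type-A ARR genes tested, ARR6 (1.15 ± 0.43, adjusted p = 0.0727), ARR16 (0.66 ± 0.36, adjusted p = 0.23) and ARR8 (0.37 ± 0.16, adjusted p = 0.115) did not pass. Against wild type, 3 genes of the list were called higher in mARF8, and 2 higher and 4 lower in arf6arf8.

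Of 6 gibberellin genes tested, 2 were lower in mARF8 and none was higher, with 1 gene higher by DESeq2 and 1 at an unadjusted p under 0.05 in edgeR. GA20OX2, a biosynthetic oxidase, had 0.852, 3.31, 1.70 and 3.61 CPM in mARF8, 7.12 and 9.54 CPM in arf6arf8 and 1.59, 2.65, 1.75 and 2.40 CPM in wild type (-1.88 ± 0.35, adjusted p = 0.00109). GA2OX2, an inactivating oxidase, had 4.97, 6.61, 5.29 and 6.66 CPM in mARF8, 10.5 and 12.0 CPM in arf6arf8 and 8.16, 6.62, 6.69 and 11.7 CPM in wild type (-0.95 ± 0.25, adjusted p = 0.0123), and its adjusted p was 0.105 without arf6arf8 replicate 2, when the count of the list was 1. Another inactivating oxidase gene, GA2OX1, had 0.71, 1.38, 1.51 and 5.32 CPM in mARF8, 0.14 and 0.403 CPM in arf6arf8 and 2.69, 2.15, 11.0 and 9.95 CPM in wild type. Its spread within mARF8 and wild type was wide (2.95 ± 1.05, adjusted p = 0.0617), and the gene was called by DESeq2 (adjusted p = 0.00935) and without mARF8 replicate 1 (0.0404).

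**Figure D4:**
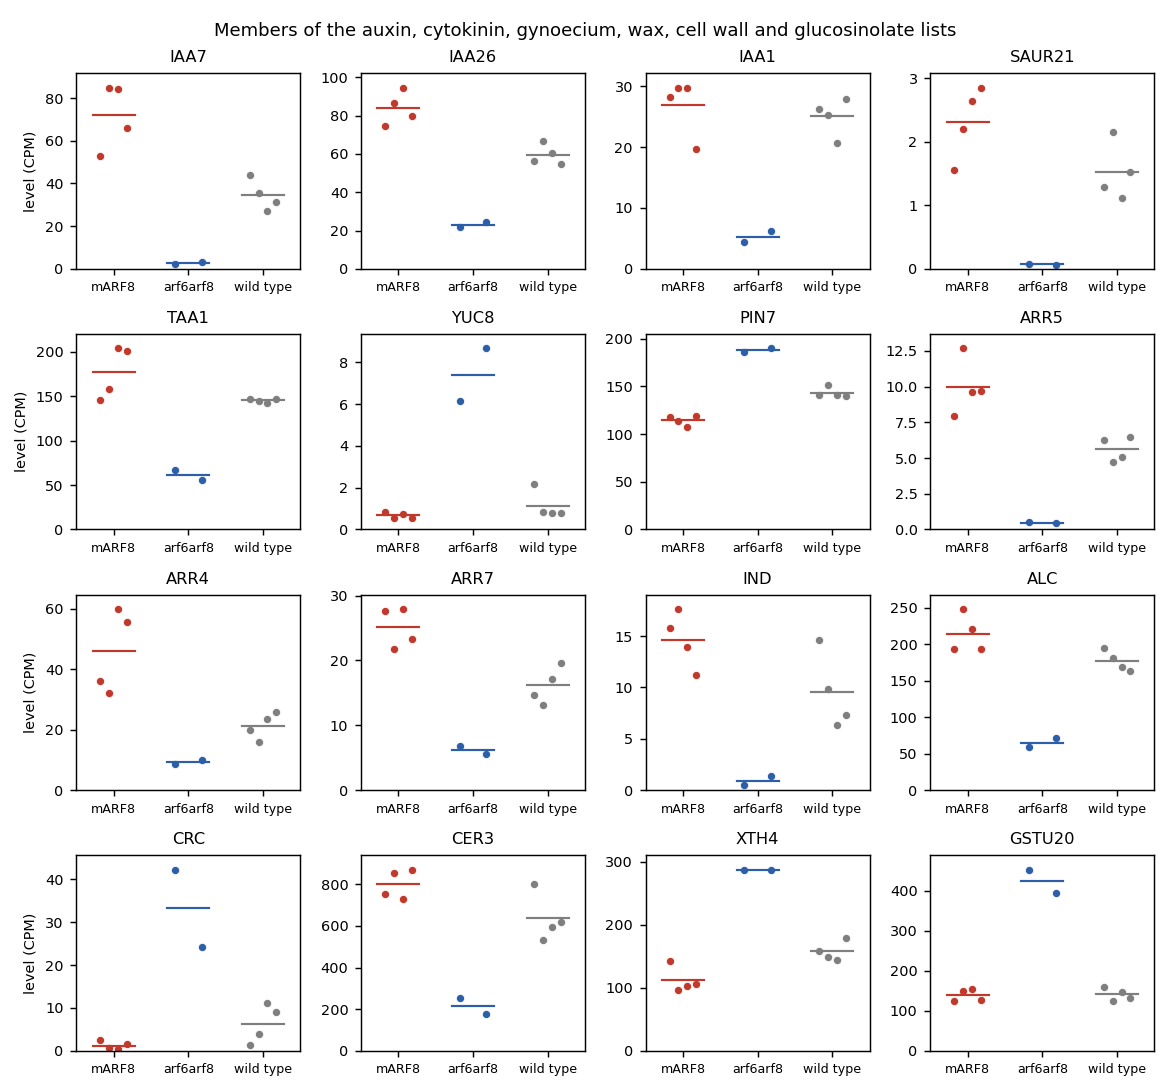
Level (CPM, linear axes from 0) of 16 named genes in each gynoecium library, with points for libraries and lines for group means. In IAA7, IAA26, ARR4, ARR7 and PIN7 the 3 groups do not overlap and wild type is in the middle, while in YUC8, CRC and GSTU20 the arf6arf8 libraries stand alone at the high end.

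Regulators of the gynoecium itself were called in both directions. Of 20 style and transmitting tract regulators tested, 4 were higher and 3 lower. CRC (AT1G69180), a YABBY factor that shapes the carpel and is needed for nectaries, had 2.41, 0.551, 0.378 and 1.52 CPM in mARF8, 42.2 and 24.3 CPM in arf6arf8 and 1.39, 3.81, 11.2 and 8.96 CPM in wild type. Both arf6arf8 libraries were above all others, and the wild-type libraries varied widely (-4.62 ± 0.63, adjusted p = 6.04e-05). BEE1, a bHLH factor of the transmitting tract, had 21.9, 34.2, 26.8 and 20.9 CPM in mARF8, 9.85 and 9.00 CPM in arf6arf8 and 28.6, 23.9, 19.0 and 27.6 CPM in wild type (1.44 ± 0.24, adjusted p = 0.000413). LRP1 and STY2, of the SHI and STYLISH family that promotes style and stigma, were higher in mARF8 (LRP1 1.13 ± 0.22, adjusted p = 0.00139; STY2 0.77 ± 0.15, adjusted p = 0.00176).

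Their relative STY1 had 18.9, 11.3, 20.0 and 17.5 CPM in mARF8, 25.7 and 39.6 CPM in arf6arf8 and 23.1, 28.7, 21.3 and 24.8 CPM in wild type. It was lower in mARF8 (-0.92 ± 0.24, adjusted p = 0.0112), but not without arf6arf8 replicate 2 (adjusted p = 0.251), when the count of the list was 4. The bHLH gene CES, also of the transmitting tract (0.65 ± 0.21, adjusted p = 0.0431), and the boundary gene CUC1 (-1.21 ± 0.36, adjusted p = 0.0277) lost their calls without most single libraries. For CES the adjusted p was 0.207 and 0.184 without arf6arf8 replicates 1 and 2 and 0.0579, 0.102 and 0.0707 without mARF8 replicates 1, 2 and 3. For CUC1 it was 0.0993 and 0.126, and 0.063, 0.0613 and 0.0609.

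Of 11 valve and valve margin genes tested, 5 were higher in mARF8 and 1 was lower. IND (AT4G00120), the bHLH factor that specifies the margin where the fruit opens, had 15.8, 17.6, 14.0 and 11.2 CPM in mARF8, 0.489 and 1.34 CPM in arf6arf8 and 14.6, 9.85, 6.37 and 7.32 CPM in wild type. Its arf6arf8 values were below 1 in 4 of the lowest wild-type value (3.96 ± 0.49, adjusted p = 2.31e-05). ALC (AT5G67110), another bHLH factor of the separation layer, had 194, 248, 220.3 and 194 CPM in mARF8, 58.4 and 71.0 CPM in arf6arf8 and 195, 182, 169 and 163 CPM in wild type (1.72 ± 0.14, adjusted p = 2.38e-07). SHP1, the MADS factor upstream of both, had 149, 172, 158 and 148 CPM in mARF8, 78.7 and 99.6 CPM in arf6arf8 and 145, 155, 141 and 151 CPM in wild type (0.81 ± 0.10, adjusted p = 1.3e-05). In all 3 genes mARF8 overlapped wild type and stayed clear of arf6arf8.

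The polygalacturonase gene ADPG1, whose product loosens the separation layer, had 0, 0.827, 0.189 and 0.38 CPM in mARF8, 1.96 and 3.49 CPM in arf6arf8 and 0.896, 0.166, 0.637 and 0.656 CPM in wild type and went down in mARF8 at a level near the floor (-3.19 ± 0.61, adjusted p = 0.00134). JAG, which promotes growth of lateral organs and valves, was higher (0.74 ± 0.15, adjusted p = 0.00283), but not without arf6arf8 replicate 2 (adjusted p = 0.059). FUL, the valve identity factor, was slightly higher (0.35 ± 0.10, adjusted p = 0.0263), but not without arf6arf8 replicate 1 (0.186) or 2 (0.111) or mARF8 replicate 2 (0.0502). SHP2, the close relative of SHP1 (-0.08 ± 0.09, adjusted p = 0.58), and NST1, a factor of secondary wall formation in the margin (-1.11 ± 0.42, adjusted p = 0.0797), did not pass.

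Among 6 class 1 KNOX genes and their repressors, KNAT1 was the 1 called, with 27.0, 27.8, 24.7 and 28.9 CPM in mARF8, 17.8 and 17.3 CPM in arf6arf8 and 24.5, 25.2, 21.8 and 24.7 CPM in wild type (0.62 ± 0.11, adjusted p = 0.00072). STM, the meristem gene of the same class, did not pass (-0.13 ± 0.13, adjusted p = 0.565). The CIN-type TCP genes, which limit growth of organs, were called in both directions. TCP13 had 10.5, 10.5, 11.1 and 9.32 CPM in mARF8, 2.72 and 3.09 CPM in arf6arf8 and 7.17, 5.79, 5.73 and 3.94 CPM in wild type, without overlap between mARF8 and either other group (1.83 ± 0.21, adjusted p = 1.1e-05). TCP17 had 1.56, 3.58, 4.53 and 2.28 CPM in mARF8, 0.698 and 0.806 CPM in arf6arf8 and 2.29, 2.23, 1.59 and 3.28 CPM in wild type (1.93 ± 0.39, adjusted p = 0.00212). TCP5 (0.86 ± 0.27, adjusted p = 0.0331), which is of the same subgroup, and TCP2 (0.38 ± 0.12, adjusted p = 0.0384) were also higher, which made 4 of 8.

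TCP10, a target of the microRNA miR319 like TCP2, had 102, 89.6, 102 and 107 CPM in mARF8, 147 and 139 CPM in arf6arf8 and 113, 114, 112 and 116 CPM in wild type and was lower in mARF8 (-0.51 ± 0.12, adjusted p = 0.00516). Its adjusted p without arf6arf8 replicate 1 was 0.0685. Without arf6arf8 replicates 1 and 2 in turn the adjusted p was 0.189 and 0.18 for TCP2 and 0.135 and 0.202 for TCP5. TCP2 also failed without mARF8 replicates 3 and 4 (0.0778 and 0.108), and TCP5 without mARF8 replicates 1 and 3 (0.0711 and 0.115). The count of the list was 2 without arf6arf8 replicate 1, 3 without replicate 2 and 3 without mARF8 replicate 3.

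Called changes among ovule regulators were small. Of 17 tested, 4 were higher and none lower, and in the lower direction 2 had an unadjusted p under 0.05 in edgeR and DESeq2 called 0. PHB, a class III homeodomain-leucine zipper factor of upper organ faces, had 202, 185, 220.5 and 223 CPM in mARF8, 143 and 155 CPM in arf6arf8 and 204, 214, 207 and 187 CPM in wild type (0.48 ± 0.08, adjusted p = 0.000665). CNA, of the same class, had 159.6, 143, 176 and 183 CPM in mARF8, 118 and 112 CPM in arf6arf8 and 139, 139, 158 and 138 CPM in wild type (0.53 ± 0.10, adjusted p = 0.00103). UCN, a kinase that keeps integument growth in plane, was higher (0.64 ± 0.16, adjusted p = 0.0101) but not without arf6arf8 replicate 1 (adjusted p = 0.187), when the count of the list was 2. WUS, the stem cell factor that also acts in the nucellus, was higher (0.96 ± 0.29, adjusted p = 0.0276) but not without arf6arf8 replicate 1 (0.151) or 2 (0.145) or mARF8 replicate 3 (0.0892) or 4 (0.0848).

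STK, the ovule identity gene, had 105, 84.1, 113 and 94.1 CPM in mARF8, 168 and 207 CPM in arf6arf8 and 131, 130.5, 129 and 138 CPM in wild type. The 3 groups did not overlap, with mARF8 lowest, but the test over 18 libraries took its spread also from axr3 and arf6axr3 libraries and did not call it (-0.92 ± 0.47, adjusted p = 0.194). With only mARF8, arf6arf8 and wild type in the model, the adjusted p was 0.000115 at the same fold change, and BEL1, an integument gene, was called likewise (log2 fold change 0.37, adjusted p = 0.0105, against adjusted p = 0.302 over 18 libraries). INO, of the outer integument, had 55.4, 34.7, 45.9 and 40.3 CPM in mARF8, 53.0 and 71.1 CPM in arf6arf8 and 90.1, 82.3, 69.9 and 71.8 CPM in wild type, with mARF8 overlapping arf6arf8 and not wild type (-0.48 ± 0.44, adjusted p = 0.502). Proanthocyanidin genes of the inner integument were mostly too low to test, and of 5 tested TT12 was the 1 called. Of 14 female gametophyte genes 2 were tested and none was called, at an unadjusted p under 0.05 or by DESeq2 either.

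Of 13 flavonol genes tested, 3 were higher, among them a pair of regulators, and none was lower, also at an unadjusted p under 0.05 in edgeR and by DESeq2, and the median log2 fold change was 0.37. MYB12, an activator of flavonol synthesis, had 42.5, 56.2, 55.7 and 39.9 CPM in mARF8, 15.2 and 14.8 CPM in arf6arf8 and 41.7, 41.2, 29.9 and 28.0 CPM in wild type. The arf6arf8 libraries were below all others (1.69 ± 0.23, adjusted p = 6.74e-05). MYB11, its relative, had 18.5, 14.6, 19.1 and 21.1 CPM in mARF8, 8.66 and 6.78 CPM in arf6arf8 and 20.7, 21.1, 14.8 and 11.4 CPM in wild type (1.26 ± 0.27, adjusted p = 0.00316). The enzyme gene CHI (chalcone isomerase) was higher by a small amount (0.69 ± 0.15, adjusted p = 0.00353), while CHS (chalcone synthase, the first enzyme) did not pass (0.37 ± 0.17, adjusted p = 0.153). Without arf6arf8 replicate 2 the count was 1, with adjusted p = 0.0629 for MYB11 and 0.0544 for CHI.

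Of 20 jasmonate response genes tested, 8 were higher in mARF8 and none was lower (no more in the lower direction at an unadjusted p under 0.05 in edgeR or by DESeq2), with a median log2 fold change of 0.35. VSP2 (AT5G24770), a vegetative storage protein and classical jasmonate marker, had 382, 1564, 1213 and 1082 CPM in mARF8, 204 and 114 CPM in arf6arf8 and 469.5, 393, 412 and 565 CPM in wild type. 1 mARF8 library lay just below wild type and 3 above it, and none overlapped arf6arf8 (2.73 ± 0.48, adjusted p = 0.000683). JAZ10, a repressor that jasmonate both degrades and induces, had 19.4, 29.5, 26.4 and 22.1 CPM in mARF8, 10.3 and 9.00 CPM in arf6arf8 and 16.0, 15.1, 18.2 and 18.4 CPM in wild type (1.32 ± 0.20, adjusted p = 0.000146). JAZ6 had 74.2, 149, 105 and 98.5 CPM in mARF8, 47.0 and 42.3 CPM in arf6arf8 and 82.4, 68.5, 92.2 and 94.2 CPM in wild type (1.24 ± 0.22, adjusted p = 0.000673).

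VSP1 (1.32 ± 0.26, adjusted p = 0.00178), CLH1, a jasmonate-induced chlorophyllase (0.99 ± 0.20, adjusted p = 0.00178), JAZ9 (0.97 ± 0.23, adjusted p = 0.00618), JAZ3 (0.85 ± 0.19, adjusted p = 0.00398) and JAZ12 (0.42 ± 0.10, adjusted p = 0.00681) made up the other 5. Without arf6arf8 replicate 2 the count of the list was 5 and the adjusted p 0.0552 for VSP1, 0.0889 for JAZ9 and 0.0661 for JAZ12, and for JAZ12 it was 0.0643 without replicate 1. mARF8 replicate 2 was the highest library for several genes of early jasmonate response or touch. MYC2, the main activator of the response, had 83.0, 366, 161 and 77.4 CPM in mARF8, 229.8 and 200.5 CPM in arf6arf8 and 128, 83.2, 56.2 and 65.9 CPM in wild type, and JAZ5 had 18.5, 90.7, 50.2 and 24.3 CPM in mARF8, 18.6 and 19.0 CPM in arf6arf8 and 18.8, 11.2, 14.5 and 14.9 CPM in wild type. Neither passed the test (MYC2 -0.34 ± 0.54, adjusted p = 0.714; JAZ5 1.23 ± 0.43, adjusted p = 0.0595), and JAZ5 was called by DESeq2 (adjusted p = 0.0462) and without mARF8 replicate 1 (0.0116) or 4 (0.0317).

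The enzymes of jasmonate synthesis and turnover gave 1 gene higher and 2 lower of 18 tested. AOC1, an allene oxide cyclase, had 2.98, 3.31, 5.66 and 5.32 CPM in mARF8, 2.02 and 1.21 CPM in arf6arf8 and 1.69, 1.57, 1.75 and 1.31 CPM in wild type, above the other groups in mARF8 (1.41 ± 0.30, adjusted p = 0.00298). Its close copy AOC3 had 2.70, 12.7, 12.3 and 4.75 CPM in mARF8, 20.0 and 18 CPM in arf6arf8 and 6.27, 4.14, 2.71 and 5.79 CPM in wild type and was lower (-1.3 ± 0.43, adjusted p = 0.0424), and reads of the AOC genes may be shared. KAT2, a thiolase of peroxisomal beta-oxidation, had 232, 219, 216 and 205 CPM in mARF8, 262 and 258 CPM in arf6arf8 and 227, 209, 229 and 226 CPM in wild type (-0.26 ± 0.07, adjusted p = 0.0123). LOX2, a lipoxygenase of the first step, did not pass (0.51 ± 0.24, adjusted p = 0.155). No member of the list was called without arf6arf8 replicate 2 (adjusted p = 0.0746 for AOC1, 0.132 for AOC3 and 0.0696 for KAT2). Without replicate 1, AOC3 and KAT2 had 0.204 and 0.112, and AOC3 had 0.103 and 0.111 without mARF8 replicates 1 and 4.

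Floral terpene genes gave 3 higher and 1 lower of 6 tested. TPS21, which makes caryophyllene and related sesquiterpenes in the stigma, had 1.14, 3.31, 0.944 and 1.71 CPM in mARF8, 0 and 0 CPM in arf6arf8 and 0.995, 0.166, 0.159 and 0.219 CPM in wild type. With 0 counts in arf6arf8, its level in mARF8 was at least 15.6-fold higher (adjusted p = 0.00211). CYP76C1, a linalool-oxidising enzyme of flowers, had 1.28, 3.31, 2.08 and 3.61 CPM in mARF8, 0.14 and 0 CPM in arf6arf8 and 2.99, 1.99, 3.66 and 3.39 CPM in wild type, with 2 counts in arf6arf8 and a ratio of 35.1 (9.23 to 298, adjusted p = 0.000226). The sesquiterpene synthase gene AT5G44630 was higher (0.56 ± 0.17, adjusted p = 0.0319) and the terpene oxidase gene CYP706A3 lower (-0.41 ± 0.12, adjusted p = 0.0256) by small amounts, and neither was called without arf6arf8 replicate 1 (adjusted p = 0.199 and 0.174) or 2 (0.139 and 0.0983), when the count of the list was 2. AT5G44630 also failed without mARF8 replicates 2 and 4 (0.0724 and 0.0765), and CYP706A3 without 1 and 3 (0.0518 and 0.0626).

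Enzymes that loosen or remodel the cell wall went apart by family. Expansins loosen walls, and of 12 alpha-expansins tested 6 were higher and 1 lower, with a median log2 fold change of 0.55. EXP3 (alpha-expansin 3) had 40.8, 54.3, 38.1 and 39.9 CPM in mARF8, 13.4 and 16.2 CPM in arf6arf8 and 26.7, 34.1, 36.5 and 27.1 CPM in wild type. The 3 groups stood in order, with all mARF8 libraries above all wild-type libraries and arf6arf8 lowest (1.53 ± 0.20, adjusted p = 3.23e-05). EXPA5 had 29.7, 41.9, 24.7 and 31.4 CPM in mARF8, 13.5 and 14.8 CPM in arf6arf8 and 28.7, 19.5, 17.0 and 15.5 CPM in wild type (1.15 ± 0.21, adjusted p = 0.000775). EXPA4 had 179.5, 166, 207 and 186 CPM in mARF8, 103 and 96.3 CPM in arf6arf8 and 116, 141, 146 and 98.4 CPM in wild type (0.89 ± 0.20, adjusted p = 0.00421).

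EXPA8 (3.66 ± 0.86, adjusted p = 0.00645), EXPA10 (1.21 ± 0.35, adjusted p = 0.0219) and EXPA6 (0.54 ± 0.15, adjusted p = 0.0209) were higher too, and EXPA14 had 1.70, 2.48, 2.45 and 2.28 CPM in mARF8, 6.07 and 5.24 CPM in arf6arf8 and 1.59, 3.56, 3.03 and 1.97 CPM in wild type and was lower (-1.36 ± 0.30, adjusted p = 0.00441). With 1 arf6arf8 library left out the count of the list was 3. Without replicates 1 and 2 in turn, the adjusted p was 0.086 and 0.0591 for EXPA8, 0.123 and 0.14 for EXPA10, and 0.12 and 0.143 for EXPA6. EXPA14 had 0.0515 without replicate 1, EXPA4 had 0.0619 without replicate 2, EXPA10 had 0.0533 without mARF8 replicate 2, and EXPA6 had 0.056 without mARF8 replicate 3.

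XTH enzymes cut and rejoin xyloglucan, and of 17 tested 6 were lower and 3 higher in mARF8, with a median log2 fold change of -1.02. XTH27 (AT2G01850) had 12.8, 10.5, 10.0 and 8.18 CPM in mARF8, 48.7 and 52.5 CPM in arf6arf8 and 25.1, 20.7, 15.9 and 24.4 CPM in wild type. Every wild-type library lay between mARF8 and arf6arf8 (-2.27 ± 0.21, adjusted p = 8.35e-07). XTH4 (AT2G06850) had 143, 95.9, 103 and 106 CPM in mARF8, 287 and 287 CPM in arf6arf8 and 158, 149.5, 144 and 178 CPM in wild type, in the same order (-1.35 ± 0.14, adjusted p = 3e-06). XTH33 had 0.142, 0, 0.189 and 0.19 CPM in mARF8, 3.63 and 4.23 CPM in arf6arf8 and 0.199, 0.662, 0.159 and 0.328 CPM in wild type, with 3 counts in mARF8 and arf6arf8 27.9 times as high (9.30 to 137, adjusted p = 6.7e-05).

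XTH24 (-3.02 ± 0.67, adjusted p = 0.00404), XTH9 (-1.22 ± 0.28, adjusted p = 0.00473) and XTH16 (-1.24 ± 0.29, adjusted p = 0.00548) were lower as well, XTH9 and XTH16 not without arf6arf8 replicate 1 (adjusted p = 0.0754 and 0.0621), when the count of the list was 5. XTH28 had 54.5, 62.6, 60.0 and 58.6 CPM in mARF8, 47.2 and 42.2 CPM in arf6arf8 and 51.0, 54.5, 61.8 and 64.5 CPM in wild type and was higher (0.40 ± 0.10, adjusted p = 0.00939), but not without arf6arf8 replicate 2 (0.149). XTH22, the touch-induced TCH4 gene, had 19.0, 120.2, 44.7 and 26.1 CPM in mARF8, 105 and 98.8 CPM in arf6arf8 and 57.4, 21.9, 11.0 and 32.6 CPM in wild type and was called lower only without mARF8 replicate 2 (adjusted p = 0.0302, against 0.264 with it). The summed level of the 23 listed XTH genes was 1294 to 1825 CPM in mARF8, 2872 and 3358 CPM in arf6arf8 and 1732 to 2453 CPM in wild type.

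Surface lipid genes were called in both directions, with 8 of 21 cutin and wax genes higher and 5 lower. The largest change was in MAH1 (AT1G57750), the hydroxylase that turns wax alkanes into secondary alcohols and ketones, with 290.5, 387, 289 and 234 CPM in mARF8, 20.8 and 22.7 CPM in arf6arf8 and 402, 174, 118 and 141 CPM in wild type. The mARF8 and wild-type libraries overlapped, and arf6arf8 was far below both (3.78 ± 0.41, adjusted p = 6.42e-06). CER3 (AT5G57800), which acts in alkane formation, had 756, 853, 729 and 871 CPM in mARF8, 254 and 176 CPM in arf6arf8 and 803, 532, 596 and 619 CPM in wild type (1.90 ± 0.16, adjusted p = 3.53e-07). KCS6 (AT1G68530), the ketoacyl-CoA synthase of very long chains, had 480.4, 497, 407 and 374 CPM in mARF8, 204 and 184 CPM in arf6arf8 and 454, 336, 306 and 327 CPM in wild type (1.18 ± 0.14, adjusted p = 2.06e-05).

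CER4, the reductase that makes wax alcohols, had 122, 127, 106 and 118 CPM in mARF8, 53.8 and 47.1 CPM in arf6arf8 and 150.3, 93.3, 97.0 and 99.1 CPM in wild type (1.23 ± 0.17, adjusted p = 7.08e-05), and the cutin hydroxylase CYP77A6 had 41.9, 54.8, 44.5 and 38.8 CPM in mARF8, 24.2 and 23.2 CPM in arf6arf8 and 45.8, 35.5, 29.3 and 37.2 CPM in wild type (0.91 ± 0.16, adjusted p = 0.000637). CER1, the partner of CER3 in making alkanes, went the other way (-0.61 ± 0.12, adjusted p = 0.00245), though not without arf6arf8 replicate 1 (adjusted p = 0.0783), when the count of the list was 7. GPAT4, an acyltransferase of cutin, had 109, 96.7, 114 and 102 CPM in mARF8, 166 and 142 CPM in arf6arf8 and 137, 140.4, 127 and 139.5 CPM in wild type (-0.54 ± 0.08, adjusted p = 0.000127). MYB16, a regulator of cuticle and conical cells, had 18.7, 21.5, 25.3 and 22.4 CPM in mARF8, 37.1 and 38.1 CPM in arf6arf8 and 25.8, 23.7, 20.9 and 22.0 CPM in wild type (-0.78 ± 0.14, adjusted p = 0.00082). Of 5 suberin genes tested, KCS2 was higher (0.80 ± 0.13, adjusted p = 0.000361) and the reductase gene FAR1 lower (-1.11 ± 0.15, adjusted p = 4.87e-05).

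Methionine-derived glucosinolates are defence compounds of the cabbage family. Of 11 genes of their synthesis tested, out of 20 listed, 8 were lower in mARF8 and none was higher, also at an unadjusted p under 0.05 in edgeR and by DESeq2, with a median log2 fold change of -1.46. In arf6arf8 against wild type 8 were called higher. GSTU20 (AT1G78370), a glutathione transferase of the pathway, had 124, 150.5, 155 and 128 CPM in mARF8, 453 and 394 CPM in arf6arf8 and 160.1, 124, 147 and 133 CPM in wild type. The arf6arf8 libraries stood alone, and mARF8 overlapped wild type (-1.61 ± 0.13, adjusted p = 3.49e-07). SOT18, a sulfotransferase of the last core step, had 4.40, 4.96, 8.12 and 5.13 CPM in mARF8, 13.1 and 13.7 CPM in arf6arf8 and 4.98, 4.47, 4.30 and 4.15 CPM in wild type (-1.25 ± 0.24, adjusted p = 0.00157). IMD1, of side-chain elongation, had 0.426, 0.276, 0 and 0 CPM in mARF8, 1.61 and 2.96 CPM in arf6arf8 and 0.398, 0.248, 0.159 and 0.219 CPM in wild type (-3.52 ± 0.60, adjusted p = 0.000495).

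FMOGS-OX3, which oxidises the side chain, had 0.426, 0.276, 0.944 and 1.71 CPM in mARF8, 7.89 and 6.31 CPM in arf6arf8 and 0.896, 0.828, 1.75 and 0.765 CPM in wild type (-3.04 ± 0.61, adjusted p = 0.00187). CYP83A1, of the core pathway, had 0, 0.276, 0 and 0.19 CPM in mARF8, 1.89 and 2.75 CPM in arf6arf8 and 0.0995, 0.0828, 0 and 0.109 CPM in wild type, with 2 counts in mARF8 and arf6arf8 24.7 times as high (6.58 to 208, adjusted p = 0.00185). For these 2 genes too, the arf6arf8 libraries were above every other library. CYP83A1 and IMD1 were near the floor in mARF8 and wild type, and may have passed the filter through arf6arf8 alone. Their direction in the count of the list would then be fixed by the filter. SOT17 was lower (-1.46 ± 0.40, adjusted p = 0.0171) but not without arf6arf8 replicate 1 (adjusted p = 0.186), when the count of the list was 5. The summed level of the list was 463 to 532 CPM in mARF8, 802 and 875 CPM in arf6arf8 and 441 to 512 CPM in wild type. Most of the gap between mARF8 and arf6arf8 in this sum came from GSTU20 alone.

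Of 26 photosynthesis genes 1 was lower in mARF8 (LHCB2.2, -0.84 ± 0.24, adjusted p = 0.0214), and the count of the list was 0 without either arf6arf8 library or mARF8 replicate 3 and 3 without mARF8 replicate 2. Without arf6arf8 replicates 1 and 2 and mARF8 replicate 3, LHCB2.2 had an adjusted p of 0.115, 0.107 and 0.06. Of 28 cell cycle and replication genes 2 were higher and 3 lower, together 17.9%, the share over all genes. The called increases were both D-type cyclins that act downstream of cytokinin. CYCD3;2 had 268, 291, 274 and 273 CPM in mARF8, 156 and 164 CPM in arf6arf8 and 256, 285, 263 and 244 CPM in wild type (0.79 ± 0.08, adjusted p = 3.68e-06) and CYCD3;1 had 85.3, 102, 93.3 and 90.1 CPM in mARF8, 63.9 and 55.8 CPM in arf6arf8 and 76.4, 69.2, 68.8 and 73.9 CPM in wild type (0.63 ± 0.09, adjusted p = 0.000131). In CYCD3;2 and CYCD3;1 both arf6arf8 libraries were the lowest. The mitotic cyclin CYCB1;3 was lower (-0.57 ± 0.14, adjusted p = 0.0102), but not without arf6arf8 replicate 1 (adjusted p = 0.0676) or 2 (0.0709), when the count of the list was 2 and 3. No clock gene of 13 and no heat shock gene of 5 was called, with 2 and 1 at an unadjusted p under 0.05 in edgeR and 0 called by DESeq2. Without mARF8 replicate 1 the clock list had 1 called, and without mARF8 replicate 3 the heat shock list had 1.

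Markers of other floral organs were counted in the same libraries. The petal and stamen identity genes AP3 and PI summed to 11.9 to 16.2 CPM in mARF8, 29.4 and 30.3 CPM in arf6arf8 and 8.44 to 14.4 CPM in wild type. AP3 had 9.51, 7.17, 7.74 and 9.32 CPM in mARF8, 20.2 and 21.6 CPM in arf6arf8 and 11.6, 9.11, 6.85 and 7.87 CPM in wild type and was lower in mARF8 (-1.29 ± 0.21, adjusted p = 0.000361), while PI had 6.67, 4.68, 6.80 and 6.84 CPM in mARF8, 9.15 and 8.73 CPM in arf6arf8 and 2.79, 4.80, 1.59 and 2.08 CPM in wild type (-0.50 ± 0.45, adjusted p = 0.497). The 4 nectary markers summed to 2.21 to 3.42 CPM in mARF8, 5.71 and 5.73 CPM in arf6arf8 and 2.99 to 4.59 CPM in wild type, with BOP2 lower in mARF8 (-1.20 ± 0.32, adjusted p = 0.0131) but not without arf6arf8 replicate 2 (adjusted p = 0.12), when no nectary marker was called. Of 13 tapetum and pollen wall markers 3 were at 0 in all 10 libraries, 3 were tested and LAP6 was higher (0.45 ± 0.12, adjusted p = 0.0169), not without arf6arf8 replicate 2 (0.19), when none was called. The 13 late pollen markers summed to 31.1 to 42.7 CPM in mARF8, 38.2 and 99.9 CPM in arf6arf8 and 21.5 to 38.1 CPM in wild type, with the high value in arf6arf8 replicate 2, and none of 7 tested was called, had an unadjusted p under 0.05 in edgeR or was called by DESeq2. The part of these tissues in the differences above was not tested.

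The same contrast was available in stamens of stage 11 buds, with 4 mARF8 and 2 arf6arf8 libraries. By their titles the mARF8 stamen libraries were of line 3B, line 4B or T1 plants, with 4B as the genotype label of all. A model of all 27 libraries tested whether the log2 fold change of mARF8 over arf6arf8 differed between the organs. It differed for 4287 of 20665 genes (20.7%), 1901 of them with a higher value in gynoecia (9.2%) and 2386 with a lower one (11.5%). In stamens alone 7671 genes (37.1%) were called. Without arf6arf8 gynoecia replicate 1 or arf6arf8 stamens replicate 1 the count of 4287 became 2699 or 2511. The organs also differ in stage and in the mARF8 lines given, and organ, stage and line cannot be told apart.

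The genes with the largest differences are given among those called, with an average log2 CPM of 1 or more and no overlap between mARF8 and arf6arf8 libraries in either organ. The 3 highest were in genes higher in mARF8 than in arf6arf8 gynoecia. AT4G35160, the O-methyltransferase, had 0.213, 0.439, 0.259 and 0.885 CPM in mARF8 and 5.35 and 7.86 CPM in arf6arf8 stamens, so its order in stamens was the reverse of that in gynoecia (difference 13.26 ± 0.77, adjusted p = 8.58e-11). The cellulase AT3G26140 had 11.3, 2.63, 7.77 and 7.52 CPM in mARF8 and 11.9 and 14.2 CPM in arf6arf8 stamens (difference 8.96 ± 0.52, adjusted p = 8.58e-11). A RING-type E3 ligase family gene, AT2G47560, had 11.4, 6.34, 6.42 and 8.37 CPM in mARF8 and 0.349 and 0.202 CPM in arf6arf8 gynoecia and 0.426, 0.219, 0.259 and 0 CPM in mARF8 and 0.721 and 0.773 CPM in arf6arf8 stamens (difference 6.44 ± 1.19, adjusted p = 0.000464). For both of these the mARF8 stamen libraries lay below the arf6arf8 ones, with all stamen values of AT2G47560 under 1 CPM. AT4G35160 was near 0 in arf6arf8 gynoecia, so its fitted difference depends on the prior count.

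At the other end, AT1G06100 had 45.2, 7.67, 7.77 and 28.1 CPM in mARF8 and 0 and 0.258 CPM in arf6arf8 stamens, against the decrease in gynoecia given above (difference -13.68 ± 1.3, adjusted p = 1.24e-07). UGT85A3, a UDP-glycosyltransferase, had 6.61, 15.1, 8.67 and 31.0 CPM in mARF8 and 0 and 0 CPM in arf6arf8 stamens, and its mARF8 and arf6arf8 gynoecium libraries had at most 0.349 CPM (difference -11.20 ± 2.14, adjusted p = 0.00072). AT3G17580 had 0.284, 0.827, 0.944 and 0.57 CPM in mARF8 and 1.61 and 1.75 CPM in arf6arf8 gynoecia and 8.53, 7.02, 4.53 and 10.2 CPM in mARF8 and 0 and 0 CPM in arf6arf8 stamens (difference -10.39 ± 1.17, adjusted p = 1.8e-06). These 3 genes were present in mARF8 stamens and at or near 0 in arf6arf8 stamens, so the fitted differences depend on the prior count and are no bounds.

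Of the altered genes, ARF8 alone was called between organs. For ARF6 the difference was -0.08 ± 0.16, adjusted p = 0.781, and for MIR167A -1.80 ± 0.73, adjusted p = 0.0863, which was called only without mARF8 stamens replicate 3 (-2.09, adjusted p = 0.0344). ARF8 had 590.5, 624, 333 and 576 CPM in mARF8 and 24.0 and 25.0 CPM in arf6arf8 stamens, a larger fold change than in gynoecia (difference -0.86 ± 0.25, adjusted p = 0.0175). That difference did not pass without arf6arf8 gynoecia replicate 2 (adjusted p = 0.0639), arf6arf8 stamens replicate 1 (0.0835) or arf6arf8 stamens replicate 2 (0.0528).

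By list, the difference was called lower in gynoecia for 10 of 19 genes of jasmonate synthesis and turnover, with a median log2 fold change of 0.07 in gynoecia and 2.07 in stamens. LOX2 was an example (difference -6.16 ± 0.40, adjusted p = 5.07e-10). Alpha-expansins (7 of 15 lower, medians 0.53 in gynoecia and 2.26 in stamens), cutin and wax genes (14 of 21 lower, medians 0.31 and 1.22) and photosynthesis genes (21 of 26 lower, medians -0.07 and 1.09) had the same form. EXP3 differed by -4.88 ± 0.61, adjusted p = 5.45e-06.

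Type-A ARR and cytokinin oxidase genes were the other way for 6 of 14, with 1 lower, and their called differences included ARR5 (2.87 ± 0.61, adjusted p = 0.00155), ARR4 (2.40 ± 0.35, adjusted p = 3.48e-05) and ARR9 (2.01 ± 0.31, adjusted p = 6.29e-05), while ARR7 was not called (0.06 ± 0.48, adjusted p = 0.969). Among Aux/IAA genes 5 of 25 were higher and 6 lower in gynoecia. For IAA26 the difference was 2.87 ± 0.19, adjusted p = 5.38e-10, and the log2 fold change in stamens was -1.02 (adjusted p = 2.78e-06), opposite to that in gynoecia. For IAA1 the difference was 3.39 ± 0.62, adjusted p = 0.000418, and its log2 fold change in stamens of -1.04 did not pass (adjusted p = 0.0586). IAA7 was not called (-0.71 ± 0.57, adjusted p = 0.42). Of the gynoecium regulators, CRC differed most among those named (-5.34 ± 0.89, adjusted p = 0.000158).

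**Figure D5:**
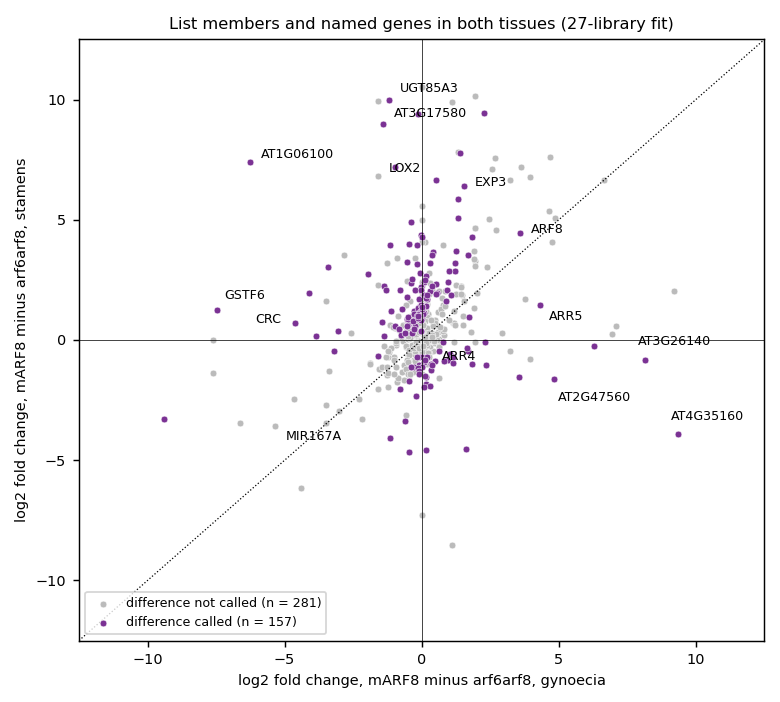
Log2 fold change of mARF8 over arf6arf8 in gynoecia (horizontal axis) and in stamens (vertical axis) for 438 list members and named genes in the 27-library model, with 157 in purple where the difference between organs was called and 281 in grey where it was not, and a dotted line of equal change. AT4G35160 and AT3G26140 lie at the lower right, AT1G06100 at the upper left, and LOX2 and EXP3 well above the line.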

How the data were processed

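Per the labels' protocols, libraries were made with a TruSeq mRNA kit, and the submitters' processing notes name TopHat2, HTSeq, edgeR and TAIR10. Their versions and roles and the strand setting of the counting are not given in the sources used here. The deposited files hold raw read counts for 33602 loci, not normalized. Overlapping, antisense and near-identical genes may share reads. Names came from a RefSeq TAIR10.1 table, which matched 32835 loci.

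The tests used edgeR 4.0.16 under R 4.3.3. The 18 gynoecium libraries (5 groups) passed through filterByExpr (count of 10, total of 15), were scaled by TMM and fitted with glmQLFit and glmQLFTest (13 residual degrees of freedom, biological coefficient of variation 0.117). The organ difference came from an interaction in a fit of all 27 libraries. P-values were adjusted by Benjamini and Hochberg over all genes tested and called under 0.05. Standard errors were taken as the fold change (log2) divided by the square root of F. CPM are counts over the total times its TMM factor. A group at 0 counts was bounded with 3 counts over the group, and ratios with 1 to 3 counts have 95% exact intervals.

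Members, the 34 gene lists and the tests were chosen with earlier results of these data known. The text names ARF6, ARF8 and the MIR167 loci, then the 6 largest called changes each way at an average log2 CPM of 1 or more where libraries of the groups did not overlap, and of each list with 3 or more called the 3 with the smallest adjusted p and the top one of the rarer direction. Other list members were added to complete a family, after their values were seen. Alternatives were upper-quartile and median-of-ratios factors, DESeq2 1.42.0, no filter, a filter at 5 CPM, fewer groups in the fit, the replicate number or library number as a term, low-numbered libraries (up to 23) and leaving out each library. The functions were tested on simulated data.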

Additional observations from a re-analysis of the deposited data

Results flagged for a closer look

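Among 272 groups of 4 libraries examined in 151 genes, 14 had 1 library far from the other 3, where chance alone flags about 1 group in 20. In mARF8, these were replicate 2 for EXP3 at 54.3 CPM (highest), for PI at 4.68 CPM (lowest) and for CKX5 at 3.03 CPM (lowest), and replicate 4 for IAA1 at 19.8 CPM (lowest). In wild type, replicate 1 stood apart for ARF8 at 406 CPM, YUC8 at 2.19 CPM and CER4 at 150 CPM (each highest) and for LAP6 at 18.4 CPM (lowest). Wild-type replicate 2 stood apart for PIN7 at 151 CPM (highest) and KAT2 at 209 CPM (lowest). Wild-type replicate 3 stood apart for FMOGS-OX3 at 1.75 CPM and CNA at 158 CPM (both highest) and for CKX5 at 3.50 CPM (lowest), and replicate 4 for STK at 138 CPM (highest). The arf6arf8 group, with 2 libraries, was not examined in this way.

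For the difference between organs, only ARF6, ARF8, MIR167A and the genes with the 3 highest and 3 lowest differences were examined here. The last were picked because they were called, and other genes named above, such as IAA26 and LOX2, were called too. Among those examined, the log2 fold change of mARF8 over arf6arf8 differed between gynoecia and stamens in 7, by the interaction term of edgeR's quasi-likelihood model. It was higher in gynoecia for AT4G35160 (difference 13.26), AT3G26140 (8.96) and AT2G47560 (6.44). It was lower in gynoecia for AT1G06100 (-13.68), UGT85A3 (-11.20), AT3G17580 (-10.39) and ARF8 (-0.86).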

How the results depend on the processing

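The count of 3332 genes called between mARF8 and arf6arf8 gynoecia was 3338 with median-of-ratios factors, 3354 with upper-quartile factors (1673 higher and 1681 lower), 3416 by DESeq2, 3101 without a filter, 2999 with the filter at 5 CPM, 3416 with mARF8, arf6arf8 and wild type alone, 3191 with the 2 groups alone and 3096 with low-numbered libraries. With the replicate number as a block it was 3651, of which 2969 were among the 3332. With library number as a term it was 3772. Deviations from the group means had correlations of -0.05 and 0.03 between same-numbered mARF8 and arf6arf8 libraries, over the 2 shared numbers. The 2 arf6arf8 libraries deviate from their mean by equal and opposite amounts, so these correlations cannot exclude that the numbers pair the samples. Same-numbered libraries had correlations with wild type of -0.109 to 0.141 for mARF8 and of -0.073 and 0.165 for arf6arf8. Both other scalings left every count within 1.5 times and every named gene on its side of the threshold.

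Genes called between mARF8 and wild type (128) were 335 by DESeq2, 257 with the replicate block, 246 with library number and 3 with low-numbered libraries, and arf6arf8 against wild type (2077) fell to 1315 with low-numbered libraries. List counts that changed by more than 1.5 times were as follows. Without a filter they were 8 for SAUR and 3 for TCP genes. At 5 CPM they were 2 for SAUR, 3 for TCP, 2 for terpene, 5 for glucosinolate and 0 for nectary genes. With the replicate block they were 7 for flavonol and 1 for clock genes. With the 3 groups alone 1 clock gene was called. With the 2 groups compared alone they were 3 for SAUR, 5 for flavonol, 1 for clock and 1 for late pollen genes. With low-numbered libraries they were 4 for GH3, 2 for proanthocyanidin, 7 for flavonol, 1 for jasmonate synthesis, 5 for glucosinolate and 0 for tapetum genes. A filter or subset leaves fewer genes or libraries, and the causes of these changes were not tested.

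Leaving out each library in turn gave 1529 to 3315 genes for mARF8 against arf6arf8, 38 to 173 for mARF8 against wild type, 753 to 2285 for arf6arf8 against wild type and 2511 to 6022 for the organ difference. List counts ran from 2 to 5 for other response factors, 0 to 4 for GH3, 3 to 6 for SAUR, 3 to 8 for auxin transport, 4 to 7 for style, 2 to 5 for TCP, 2 to 5 for ovule, 1 to 4 for flavonol, 0 to 3 for jasmonate synthesis, 5 to 9 for jasmonate response, 2 to 3 for terpene, 3 to 7 for expansin, 5 to 9 for XTH, 1 to 3 for gibberellin, 7 to 13 for cutin and wax, 5 to 8 for glucosinolate, 0 to 3 for photosynthesis, 2 to 6 for cell cycle, and 0 to 1 for clock, heat shock, nectary and tapetum genes.

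Named genes also crossed the threshold in mARF8 against arf6arf8 under settings other than leaving out a library. With low-numbered libraries, SAUR63 (adjusted p = 0.0874), AOC3 (0.0855), WUS (0.0824), LAP6 (0.0673), ARR15 (0.0615), KAT2 (0.0529), AT5G44630 (0.0517) and SOT17 (0.05001) were no longer called, and IAA2 (0.0386) and STK (0.00575) were. With the replicate block, AOC3 (0.0757), ARR15 (0.0567) and ARF5 (0.0505) were no longer called, and CHS (0.0404) and JAZ5 (0.0485) were. With the 2 groups alone, TCP5 (0.0796), FUL (0.0757), WUS (0.0555) and AOC3 (0.0539) were not called, and with 3 groups FUL was not (0.0592). Without a filter ARF5 (0.0647), TCP5 (0.0513) and TCP2 (0.0509) were not called. With library number as a term, GA2OX1 (0.0222) and JAZ5 (0.0455) were called.

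The limits are 2 arf6arf8 libraries, 1 transgenic line as labelled, mARF8 libraries with fewer reads than the arf6arf8 ones, and whole gynoecia of 1 stage.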

Other observations

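The pollen genes VGD1 and PPME1, picked after their values were seen, were uneven within the arf6arf8 group. Together they held most of the gap between the arf6arf8 libraries in the summed late pollen markers. VGD1, a pectin methylesterase of the pollen tube, had 16.8, 9.92, 7.93 and 11.0 CPM in mARF8, 15.5 and 50.8 CPM in arf6arf8 and 6.37, 12.6, 9.24 and 1.86 CPM in wild type. PPME1, another pollen pectin methylesterase, had 8.94, 7.72, 4.91 and 6.47 CPM in mARF8, 4.40 and 29.7 CPM in arf6arf8 and 3.98, 3.89, 5.73 and 0.437 CPM in wild type. In both genes arf6arf8 replicate 2 was the highest of the 10 libraries and replicate 1 lay within the range of mARF8 or just below it. The part of pollen RNA in other results was not tested.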
